A study of Mus musculus with 12 samples.

Results

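The genes described here encode the machinery of membrane and vesicle traffic: the Rab and Arf GTPases, the Vps and Snx proteins of endosomes, the syntaxin (Stx) and Vamp fusion proteins, the synaptotagmins (Syt), the Sec proteins of the secretory pathway and the exocyst (Exoc). They were chosen by name and by a filter on low values. Names also brought in genes outside this description, such as the Rab effectors and regulators Rab11fip2 and Rab3gap1 and the Sec14-like Sec14l2 and Sec14l3. A gene entered when its only symbol in the platform annotation began with one of these names followed by a digit and a probe set for it read over 4 on the log2 scale in at least 3 of the 12 arrays. The probe set with the highest mean stood for the gene. Of 111 genes whose names matched, 81 passed and are the members, out of 4617 genes with 1 symbol that passed the same filter.

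The study measured RNA of the mouse hippocampus with Affymetrix MG-U74B arrays, in mice called control or mutant, 1 h after saline or 20 mg/kg kainate given into the abdomen. Kainate activates ionotropic glutamate receptors and provokes seizures. The title names loss of the transcription factors CREB and CREM, and the comparisons ask how that loss bears on the response to kainate. The 4 groups were control saline, control kainate, mutant saline and mutant kainate, with 3 arrays each, and each array carried the pooled RNA of 3 animals. All groups were littermates of both sexes, aged 5 to 6 weeks. The labels do not give the alleles, a Cre driver or the strain of the mutants, so the cells that lost CREB cannot be named here. They call the replicates biological and do not say what a shared replicate number stands for.

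All values are log2 intensities after GCRMA, a background correction and summary per probe set, and they ran from -1.05 to 13.3. Array medians lay between 3.77 and 4.07, and 5741 to 6378 probe sets per array read over 4. The probe set for Creb1, the gene of CREB, read 7.58, 7.51 and 6.94 in control saline, 7.14, 6.97 and 6.83 in control kainate, 8.33, 8.26 and 8.10 in mutant saline and 8.47, 7.64 and 7.82 in mutant kainate. It was thus higher, not lower, in the libraries labelled mutant. No source used here places its probes inside or outside the deletion, so it checks nothing, and the groups are called labelled mutant throughout. The Crem probe set stayed at 2.82 to 3.35 on all arrays, under the filter. Markers of neurons averaged 9.55 to 9.91 over the arrays, although Snap25, a defining marker, did not pass the filter. Arrays numbered 1 in the 4 groups stood apart from those numbered 2 and 3, and values by number are given where they bear on a result.

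Membrane traffic moves proteins between compartments in vesicles. Coats such as COPII and the sorting nexins select cargo, Rab GTPases mark each compartment and recruit tethers such as the exocyst, HOPS and GARP, and SNAREs such as syntaxins and Vamps fuse the membranes. In neurons the same machinery fills and releases synaptic vesicles, with synaptotagmins as calcium sensors, and carries receptors to and from the synapse. CREB and CREM bind the cAMP response element of promoters and drive many genes that respond to activity.

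By family, the members were 23 of 35 Rab genes that matched by name, 14 of 17 Snx, 14 of 18 Vps, 10 of 12 Sec, 7 of 10 Exoc, 6 of 7 Syt, 3 of 6 Stx, 3 of 4 Vamp and the 1 Arf gene, while the 1 Arl match did not pass. The other 30 genes had no probe set over the filter, among them Rab11b, Rab14, Rab5b, Stx7, Stx8, Vps41 and Vps54. The filter says nothing about their expression beyond these probes. Just outside it lay Rab43, with a highest value of 4.14, Sec24b at 4.10 and Rab3il1 at 4.09. Just inside lay Rab32, over 4 in 3 arrays, and Vamp3 and Vps53, each over 4 in 4 arrays. Of the members, 73 read over 4 on all 12 arrays and 8 in part of them, so low values of those 8 lie near the background. For a few of them the filter was met through the arrays of 1 side of a comparison. Rab27a was over 4 on 6 control arrays and 1 labelled mutant array, Rab32 on 0 and 3, and Vamp3 on 3 kainate arrays and 1 saline array. Syt14 was over 4 on 3 kainate arrays and 2 saline arrays, so it too passed only with a kainate array. Such a member is favoured when it reads higher on that side, so its values there are a description, with no test, and no count that holds it is read as support.

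Few members passed a test between groups. In the limma model without a term for the replicate number, 0 of 81 passed an adjusted p of 0.05 in any of the 7 comparisons. The share of all 6334 tested probe sets that passed was 0.158% for kainate in controls, 0.174% for kainate in labelled mutants, 0% for the difference of these responses, 0% for genotype with saline, 0.0632% for genotype with kainate, 0.41% for kainate averaged over genotypes and 0.253% for genotype averaged over treatments. Beside those counts of 0, limma gave an unadjusted p under 0.05 for 5, 3, 0, 8, 5, 5 and 10 members in the same order. The shares of all probe sets at that level were 11.6%, 6.28%, 2.32%, 3.88%, 4.67%, 14.7% and 6.47%. When the replicate number was fitted as a block, 6 members passed for genotype and 3 for kainate, both in the averaged comparisons. These are described first, and the adjusted p is given with the block and without it.

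**Figure D1:**
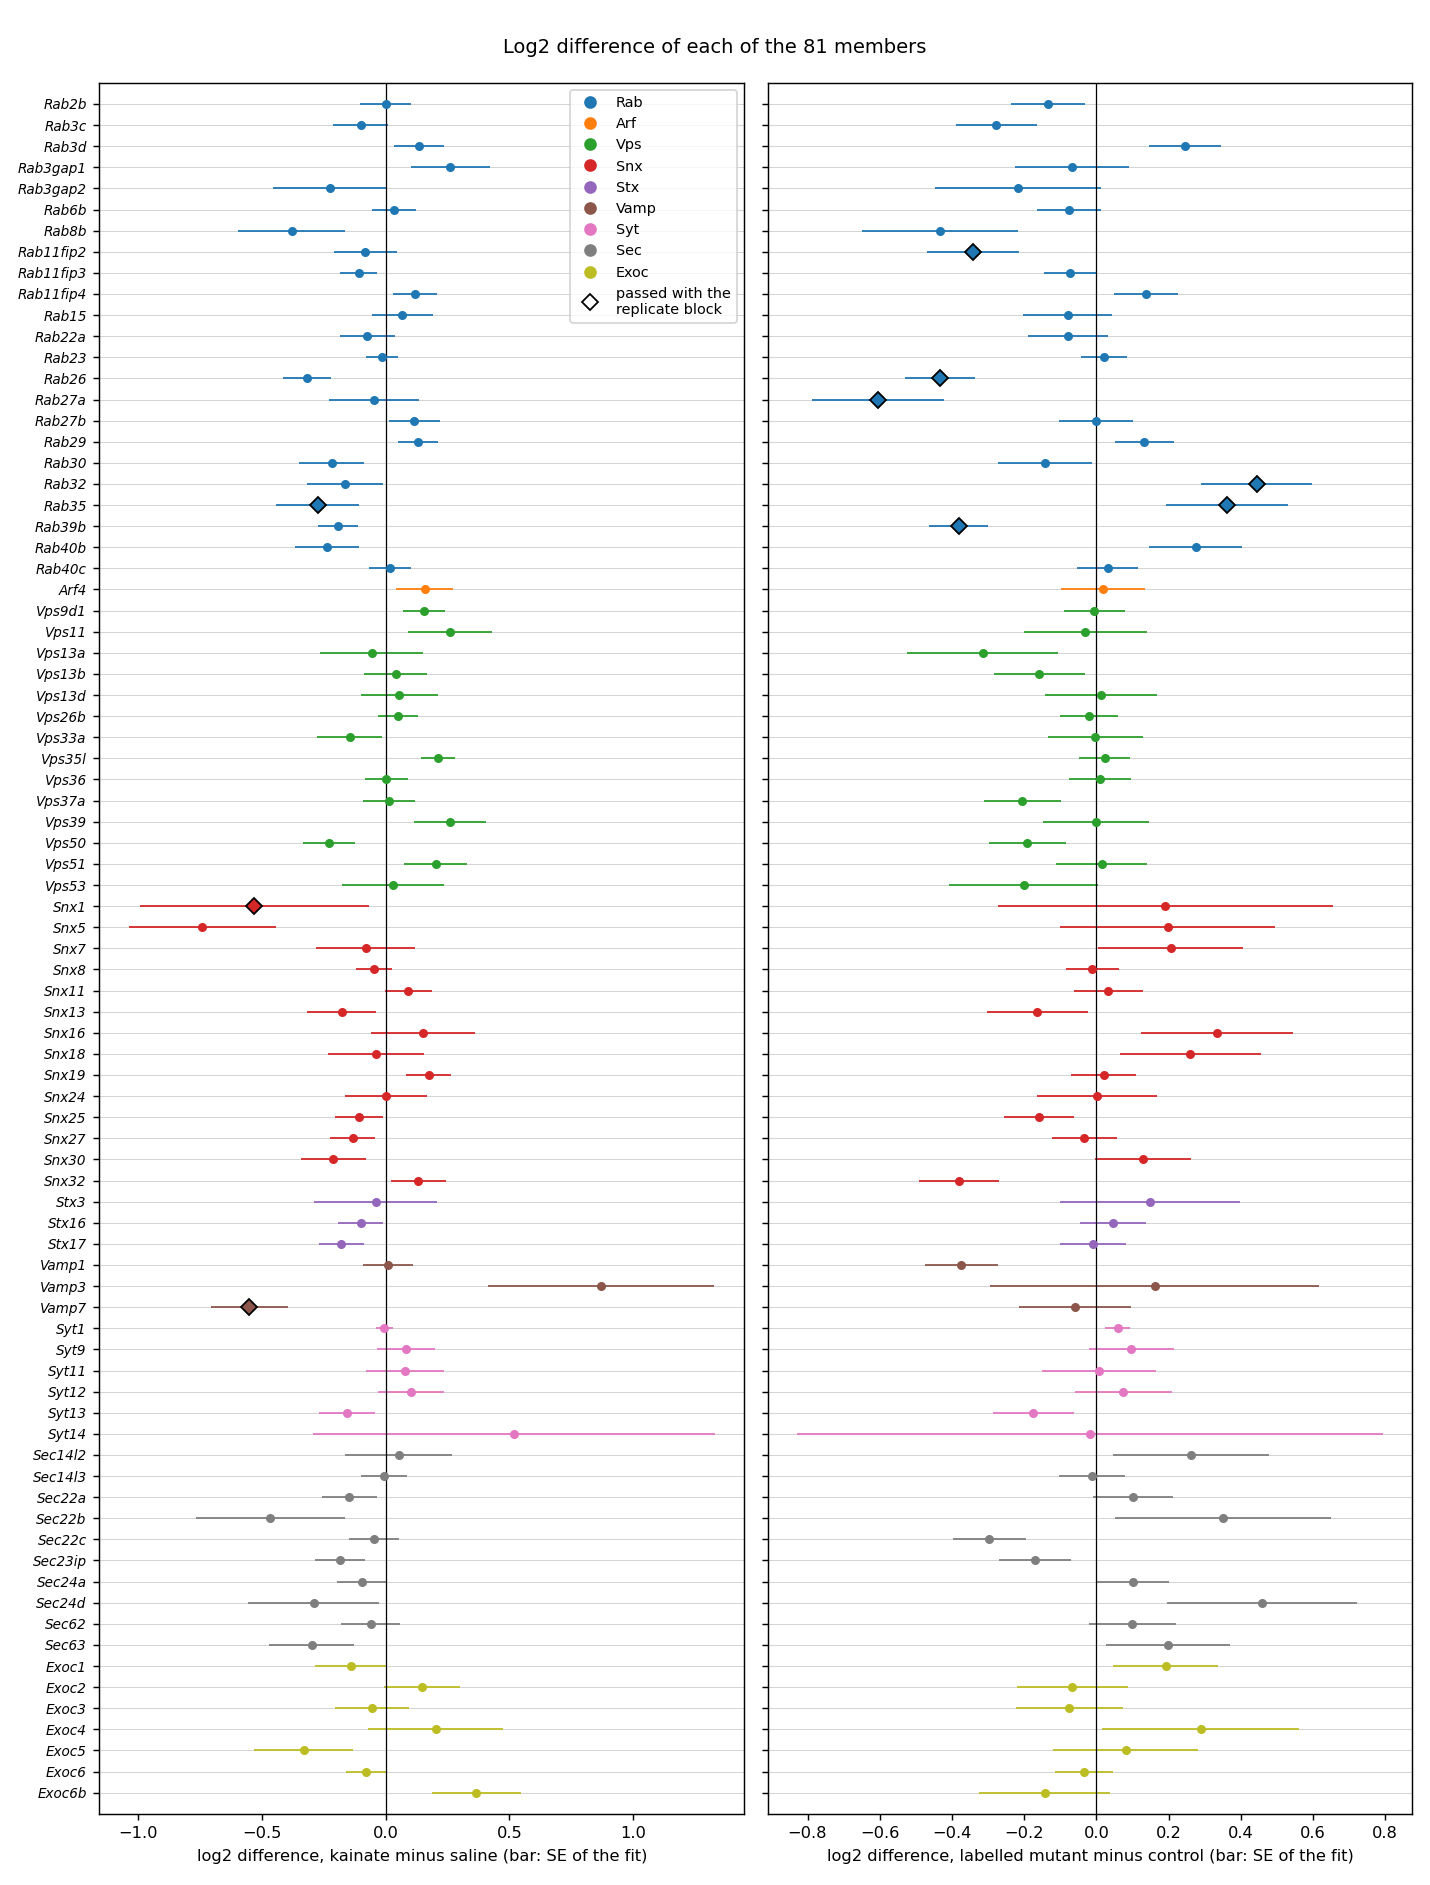
Log2 difference of each of the 81 members, kainate minus saline averaged over genotypes (left) and labelled mutant minus control averaged over treatments (right), coloured by family. Points are the differences, bars the SE of the fit without the block, and black-edged diamonds the 3 and 6 members that passed with the replicate block. The 6 hold Rab27a and Rab32, which met the filter through 1 side and are given with no test. Most members lie within 0.5 of 0.

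Between genotypes, 6 Rab genes or Rab effectors passed with the block. Rab26, Rab39b and Rab11fip2 were lower in the labelled mutants by 1.27-fold to 1.35-fold, and Rab35 was higher by 1.29-fold. The count of 6 also holds Rab27a and Rab32, which met the filter through control and labelled mutant arrays, respectively. Of all tested probe sets 2.32% passed, and because of these 2 the members' count is not read against that share, here or in the genotype counts below that hold them. The labelled mutants were the libraries with the higher Creb1 reading. In what follows 3 values of a group are given in the order of replicate numbers 1, 2 and 3.

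Rab26, a GTPase found on secretory granules and synaptic vesicles, read 5.93, 6.22 and 6.29 in control saline, 5.73, 6.04 and 5.71 in control kainate, 5.74, 5.75 and 5.65 in labelled mutant saline and 5.54, 5.37 and 5.28 in labelled mutant kainate. All labelled mutant arrays were below all control arrays of the same treatment. The log2 difference averaged over treatments was -0.43 (SE 0.0965), 1.35-fold lower, with limma adjusted p of 0.114 without the block and 0.0438 with it. It was -0.19 among arrays numbered 1, -0.57 among those numbered 2 and -0.54 among those numbered 3. Kainate arrays were also lower than saline arrays of the same number in both genotypes, by a mean of -0.32, which did not pass (adjusted p 0.182, and 0.0617 with the block).

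Rab39b, a neuronal GTPase of the Golgi region that is mutated in an X-linked intellectual disability, read 7.51, 7.63 and 7.34 in control saline, 7.11, 7.31 and 7.12 in control kainate, 6.99, 6.96 and 7.02 in labelled mutant saline and 6.81, 6.998 and 6.95 in labelled mutant kainate. The control arrays again lay above the labelled mutant arrays within each treatment, and the control saline arrays were the highest of all. The averaged difference was -0.38 (SE 0.0818), with adjusted p of 0.101 in limma without the block and 0.0311 with it.

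Rab27a, which docks secretory granules at the plasma membrane, read 4.42, 4.57 and 4.39 in control saline, 5.10, 4.12 and 4.09 in control kainate, 4.17, 3.85 and 3.62 in labelled mutant saline and 3.95, 3.99 and 3.48 in labelled mutant kainate. The groups of each treatment did not overlap, but the values lie near the filter, with 7 of 12 arrays over 4. The log2 difference was -0.60, given with no test because the control arrays carried the gene over the filter.

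Rab11fip2, an effector of Rab11 that links recycling endosomes carrying glutamate receptors to a myosin motor, read 8.39, 8.15 and 7.89 in control saline, 8.34, 7.89 and 7.89 in control kainate, 7.89, 7.74 and 7.72 in labelled mutant saline and 7.99, 7.63 and 7.53 in labelled mutant kainate. The groups overlapped, and the arrays numbered 1 were the highest in each group. Within each number the labelled mutants were lower, by -0.43, -0.33 and -0.26 for numbers 1, 2 and 3. The averaged difference was -0.34 (SE 0.127), with adjusted p of 0.619 in limma without the block and 0.0433 with it.

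Rab35, a GTPase of recycling from endosomes to the plasma membrane, read 8.98, 8.63 and 8.49 in control saline, 8.65, 8.24 and 7.91 in control kainate, 9.22, 8.82 and 8.68 in labelled mutant saline and 9.16, 8.73 and 8.47 in labelled mutant kainate. The groups overlapped, yet in all 4 the array numbered 1 was the highest and the one numbered 3 the lowest. Labelled mutants were higher within numbers 1, 2 and 3 by 0.37, 0.34 and 0.38, and the averaged difference of 0.36 (SE 0.169) had limma adjusted p of 0.787 without the block and 0.0201 with it. A second Rab35 probe set gave 0.12, and the one used here has the suffix _s, which marks probes shared by more than one transcript.

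Rab32, which serves late endosomes and lysosome-related organelles, read 3.91, 3.79 and 3.71 in control saline, 3.95, 3.77 and 3.69 in control kainate, 4.85, 4.43 and 3.96 in labelled mutant saline and 4.47, 3.90 and 3.88 in labelled mutant kainate. It exceeded 4 on 3 arrays alone, all from labelled mutants. The log2 difference was 0.44, given with no test because these arrays alone carried it over the filter.

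Close to the threshold lay Vamp1, a synaptic vesicle SNARE also called synaptobrevin, and the sorting nexin Snx32. Vamp1 read 8.60, 8.40 and 8.74 in control saline, 8.71, 8.76 and 8.31 in control kainate, 8.34, 8.10 and 8.18 in labelled mutant saline and 8.25, 8.20 and 8.19 in labelled mutant kainate, with no overlap within either treatment. Its difference of -0.37 (SE 0.101) did not pass in limma (adjusted p 0.243, and 0.0890 with the block). Snx32 had means of 5.82 ± 0.211 (SD, n = 3) in control saline, 5.91 ± 0.149 in control kainate, 5.40 ± 0.243 in labelled mutant saline and 5.57 ± 0.124 in labelled mutant kainate. Its difference of -0.38 had limma adjusted p of 0.342 without the block and 0.0533 with it.

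**Figure D2:**
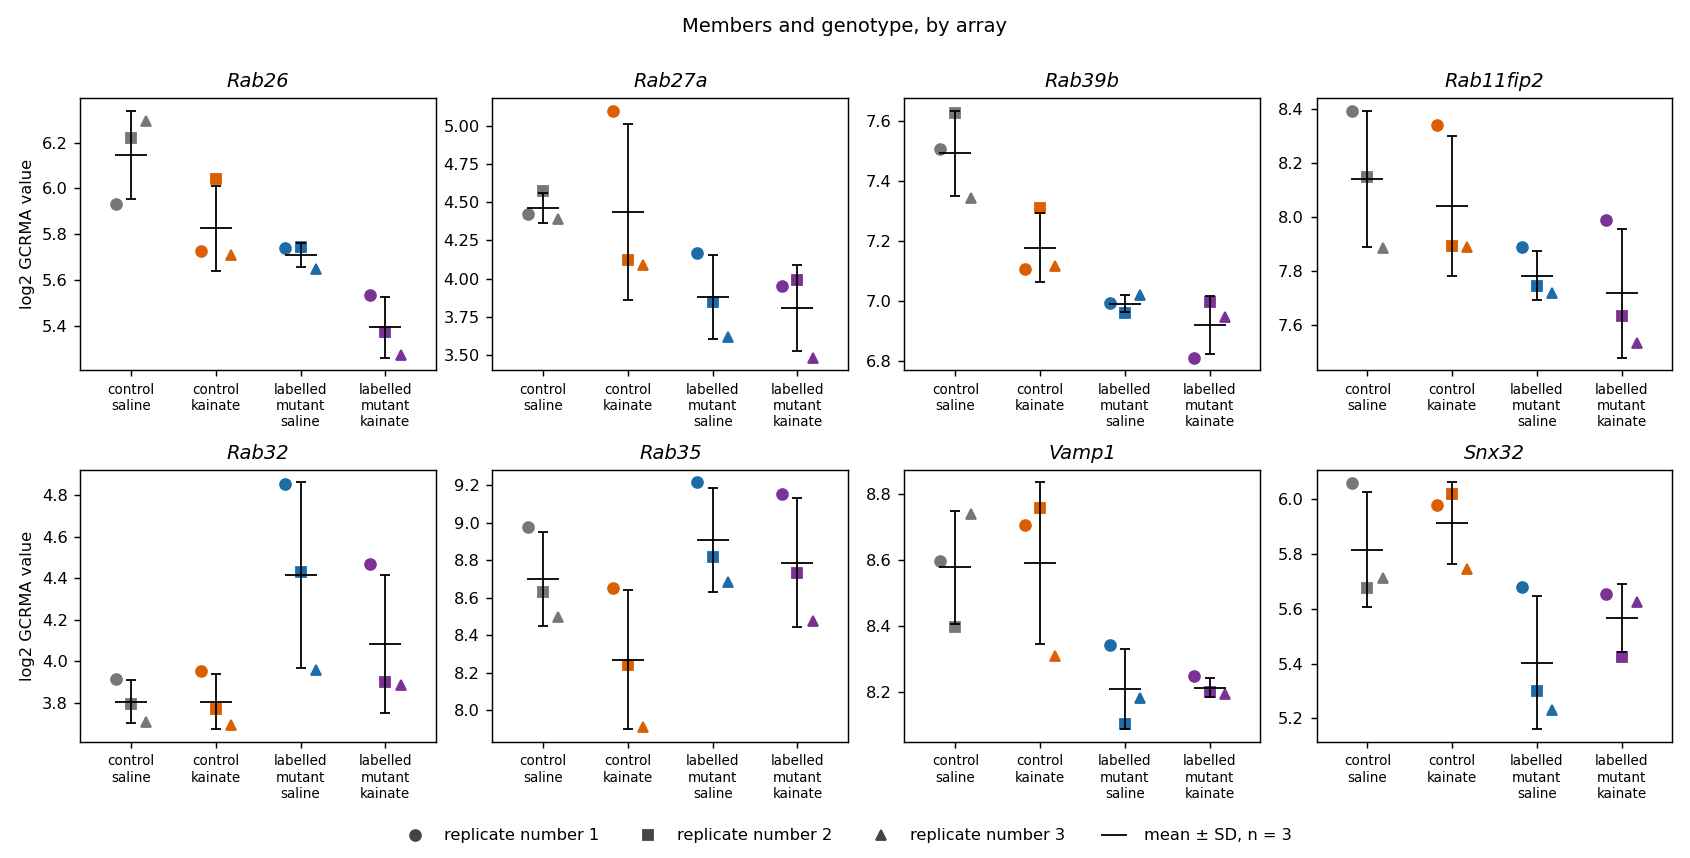
Log2 GCRMA value of Rab26, Rab27a, Rab39b, Rab11fip2, Rab32, Rab35, Vamp1 and Snx32 on each of the 12 arrays, by group; the symbol gives the replicate number and the bar the mean ± SD of 3 arrays. Rab26, Rab27a, Rab39b and Vamp1 do not overlap between genotypes within a treatment, while Rab35 and Rab11fip2 separate only when arrays of the same number are compared.

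These calls rest on the block and on the full set of arrays. With the block kept and each of the 12 arrays left out in turn, 0 to 4 members passed. Rab35 passed in 5 of those 12 fits, Rab26 in 2, and Rab39b and Rab11fip2 in 0, with adjusted p up to 0.1004 for Rab39b and 0.124 for Rab11fip2. With the block and quantile normalization together these 4 passed again. Without the block, the fit that left out all arrays numbered 1 called 0 members for genotype averaged over treatments, against 0.726% of all probe sets. It also called 0 members for genotype with saline (against 0.0789%), genotype with kainate (0.189%) and the difference of responses (0%).

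At an unadjusted p under 0.05 without the block, 8 members were lower in the labelled mutants, where 3.73% of all probe sets were, and 2 were higher, against 2.75%. Counting direction alone, 10 members were lower in the labelled mutants in all 6 pairs of arrays of the same number and treatment, and 4 were higher. The lower ones were Rab11fip2, Rab26, Rab27a, Rab39b, Snx25, Snx32, Vamp1, Vps13a, Vps50 and Vps53, where 6.52% of all probe sets did the same. The higher ones were Rab32, Rab35, Rab40b and Sec14l2, against 4.45% of all probe sets. In both treatments together, 4 members (Rab26, Rab27a, Rab39b and Vamp1) had non-overlapping lower values in the labelled mutants and 0 had higher ones, against 1.25% and 0.537% of all probe sets. Counts that hold Rab27a or Rab32 are not read against these shares, because these 2 members met the filter through 1 side. The median difference of the 81 members was -0.00, as was that of all tested probe sets, with 39 members above 0. The secretory vesicle Rabs among the members were Rab3c, Rab3d, Rab26, Rab27a and Rab27b. No median is given for this group, because Rab27a met the filter through control arrays. Rab3c, which with its relatives sits on synaptic vesicles, differed by -0.28, Rab27b by -0.00 and Rab3d, a granule form, by 0.25, and none of these 3 passed.

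Markers of some cell types moved with genotype in the same samples. The 5 measured microglia markers were all higher in the labelled mutants, with a median of 0.62, and their mean level was 5.87 to 6.04 in control saline, 6.08 to 6.17 in control kainate, 6.30 to 6.76 in labelled mutant saline and 6.67 to 6.98 in labelled mutant kainate. Plek passed in limma without the block (1.24, adjusted p 0.0420), and Siglech, Olfml3, Plek and Tgfbr1 passed with it. Of 11 astrocyte markers 10 were above 0, with a median of 0.15, and Aqp4, Mlc1 and Ednrb passed with the block. The 5 markers of hippocampal principal cells were all below 0, with a median of -0.40, and Bcl11b (-0.84) and Fibcd1 (-0.61) passed with the block. Their mean level was 8.04 to 8.25 in control saline, 8.08 to 8.25 in control kainate, 7.496 to 7.88 in labelled mutant saline and 7.70 to 7.88 in labelled mutant kainate. Of 10 neuron markers 3 were above 0, with a median of -0.13, and all 3 interneuron markers were above 0, with a median of 0.24. The median was -0.18 for 2 oligodendrocyte, 0.07 for 4 endothelial and mural and 0.24 for 2 choroid plexus markers. None in these other lists passed with or without the block. In whole tissue, fewer cells of a type and less RNA per cell cannot be told apart, and the part of all these markers in the results on Rab genes was not tested.

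Taken by treatment, the genotype gave 0 calls among the members in limma with or without the block, where 0.142% of all probe sets passed with the block for saline and 0.111% for kainate. With the block, 15 members had an unadjusted p under 0.05 with saline, against 9% of all probe sets, and 12 with kainate, against 13.7%. With saline the values of 10 members were lower without overlap in the labelled mutants, where 4.33% of all probe sets were: Rab27a (-0.58), Rab39b (-0.50), Rab26 (-0.44), Sec22c (-0.40), Vamp1 (-0.37), Rab3c (-0.30), Vps50 (-0.30), Syt13 (-0.29), Vps37a (-0.24) and Rab11fip3 (-0.11). The smallest adjusted p among these was that of Rab39b, 0.458 in limma without the block and 0.121 with it. Rab32 (0.61), Rab3d (0.31) and Rab40b (0.26) were higher without overlap, against 4.48% of all probe sets. With kainate 6 members were lower without overlap, where 7.63% of all probe sets were: Rab27a (-0.63), Rab26 (-0.43), Vps13b (-0.39), Vamp1 (-0.38), Snx32 (-0.35) and Rab39b (-0.26). Rab11fip4 (0.25), Sec14l2 (0.17) and Syt1 (0.11) were higher, against 3.09% of all probe sets. Rab26, Rab27a, Rab39b and Vamp1 stand in both lists. Here too, counts that hold Rab27a or Rab32 are not read against the shares of all probe sets.

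Promoter sequence was set beside these values because CREB and CREM bind the cAMP response element TGACGTCA and its core TGACG. RefSeq promoters of 300 bases around the start site, on GRCm38.p6, were at hand for 62 of the 81 members. On either strand, the 8-base element was in 1 member gene (1.61%), against 3.63% of the 3749 tested genes with a promoter, and every match to it also holds the core. The core was in 22 member genes (35.5%), against 36.6% of the tested genes. The E-box CACGTG was in 13 (21.0%) against 11.3%, and the EGR motif GCGTGGGCG in 1 (1.61%) against 1.60%. These are matches of letters in a fixed window and show no binding. Of the 6 genes counted for genotype, Rab11fip2 and Rab27a had the core, Rab32, Rab35 and Rab39b had no match in the window, and Rab26 was not among the promoters used. The 120 bases before the start site are shown for Rab11fip3, the member with the 8-base element, and for Rab11fip2 and Rab27a, with the element or core in capitals, on either strand. They lie at chr17:26069519-26069638 on the minus strand, chr19:59943655-59943774 on the minus strand and chr9:73064028-73064147 on the plus strand.
Rab11fip3: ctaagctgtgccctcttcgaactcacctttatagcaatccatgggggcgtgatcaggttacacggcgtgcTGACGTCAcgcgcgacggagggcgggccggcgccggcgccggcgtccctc
Rab11fip2: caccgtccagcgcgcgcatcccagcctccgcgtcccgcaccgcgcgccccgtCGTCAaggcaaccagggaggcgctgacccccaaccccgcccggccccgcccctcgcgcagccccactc
Rab27a: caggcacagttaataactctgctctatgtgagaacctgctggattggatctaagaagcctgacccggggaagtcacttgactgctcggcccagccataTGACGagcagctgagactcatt
Rab11fip3, the carrier of the 8-base element, differed by -0.11 between kainate and saline and by -0.07 between genotypes, and neither passed.

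For kainate averaged over genotypes, 3 members passed with the block, all lower after kainate: Snx1, Vamp7 and Rab35. That is 3.7% of the members, where 7.63% of all probe sets passed, 5.42% of them lower. With only 3 members counted, their share is not read as a difference from that of all probe sets. Snx1, a sorting nexin that shapes the tubules in which retromer returns cargo from endosomes, read 8.27, 6.98 and 7.34 in control saline, 8.13, 6.13 and 6.06 in control kainate, 8.43, 7.05 and 7.003 in labelled mutant saline and 8.23, 6.66 and 6.68 in labelled mutant kainate. The arrays numbered 1 were the highest in every group, and the kainate arrays were lower than saline arrays within each number. The difference of -0.53 (SE 0.463) had limma adjusted p of 0.635 without the block and 0.0359 with it. A second Snx1 probe set gave -0.14, and the one used here also has the suffix _s.

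Vamp7, a SNARE of late endosomes and lysosomes that also serves outgrowth of neurites, read 8.73, 9.34 and 8.75 in control saline, 8.55, 8.29 and 8.22 in control kainate, 8.71, 9.13 and 8.70 in labelled mutant saline and 8.65, 7.97 and 8.36 in labelled mutant kainate. Saline and kainate arrays did not overlap within either genotype, and the arrays numbered 2 were farthest apart. The difference of -0.55 (SE 0.155), 1.47-fold lower, had limma adjusted p of 0.160 without the block and 0.0490 with it. Its probe set has the suffix _i, which marks sets with fewer probes than usual. For Rab35, whose values are given above, the difference was -0.28 (SE 0.169), with limma adjusted p of 0.477 and 0.0351, and -0.02 for its second probe set.

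The kainate calls with the block also rested on single arrays. Leaving out any 1 of the 8 arrays numbered 2 or 3 left 0 members called, and leaving out an array numbered 1 gave 7 (control saline), 5 (control kainate), 10 (labelled mutant saline) or 12 (labelled mutant kainate). With the block and quantile normalization together Vamp7 did not pass (adjusted p 0.0623) and Vps35l did (0.0491, higher after kainate).

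Some members showed their kainate difference on the arrays numbered 2 and 3 alone. Snx5, a partner of Snx1 in the same coat, read 6.56, 6.39 and 6.79 in control saline, 6.86, 5.53 and 5.61 in control kainate, 7.06, 6.999 and 6.75 in labelled mutant saline and 7.01, 5.56 and 5.55 in labelled mutant kainate. The 4 kainate arrays numbered 2 or 3 were lower than every other array, and the kainate arrays numbered 1 were among the high ones. By number the averaged differences were 0.12, -1.15 and -1.19. Over all arrays the difference was -0.74 (SE 0.298), which did not pass (limma adjusted p 0.290, and 0.0565 with the block). In the fit without the arrays numbered 1 it was -1.17. Those arrays had shown no fall on average, so leaving them out had to enlarge the difference. No p-value is therefore given for Snx5 in that fit.

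In that fit of 8 arrays, 13 members passed for kainate averaged over genotypes, where 22.3% of all probe sets did. Lower were Exoc5, Rab26, Rab40b, Sec22b, Sec24d, Sec63, Snx1, Snx5, Vamp7 and Vps50, against 13.5% of all probe sets, and higher were Exoc6b, Rab3gap1 and Vps39, against 8.76%. In controls 9 members passed, against 10.1% of all probe sets: Exoc5, Rab40b, Sec22b, Sec23ip, Sec24d, Snx1, Snx5 and Vamp7 lower and Vps39 higher. In labelled mutants Snx5 was lower and Exoc6b higher, 2 members against 9.41% of all probe sets. These shares of the members, 16.0%, 11.1% and 2.47%, lay near or below those of all probe sets, and the fit rests on 2 arrays per group.

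Exoc6b, a subunit of the exocyst, which tethers vesicles to the plasma membrane, read 7.51, 7.06 and 7.11 in control saline, 7.32, 7.90 and 7.40 in control kainate, 7.52, 6.83 and 6.74 in labelled mutant saline and 7.12, 7.79 and 7.43 in labelled mutant kainate. Kainate arrays numbered 2 and 3 were above the saline arrays of their number, and those numbered 1 were below. Its difference of 0.37 over all arrays had limma adjusted p of 0.375. Vps35l, a subunit of the retriever complex that recycles receptors from endosomes, showed the same small step on all numbers. Its means were 7.64 ± 0.065 (SD, n = 3) in control saline, 7.82 ± 0.0837 in control kainate, 7.63 ± 0.0415 in labelled mutant saline and 7.87 ± 0.0612 in labelled mutant kainate, with no overlap within a genotype. The difference of 0.21 (SE 0.0694) did not pass in limma (adjusted p 0.217, and 0.0795 with the block).

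**Figure D3:**
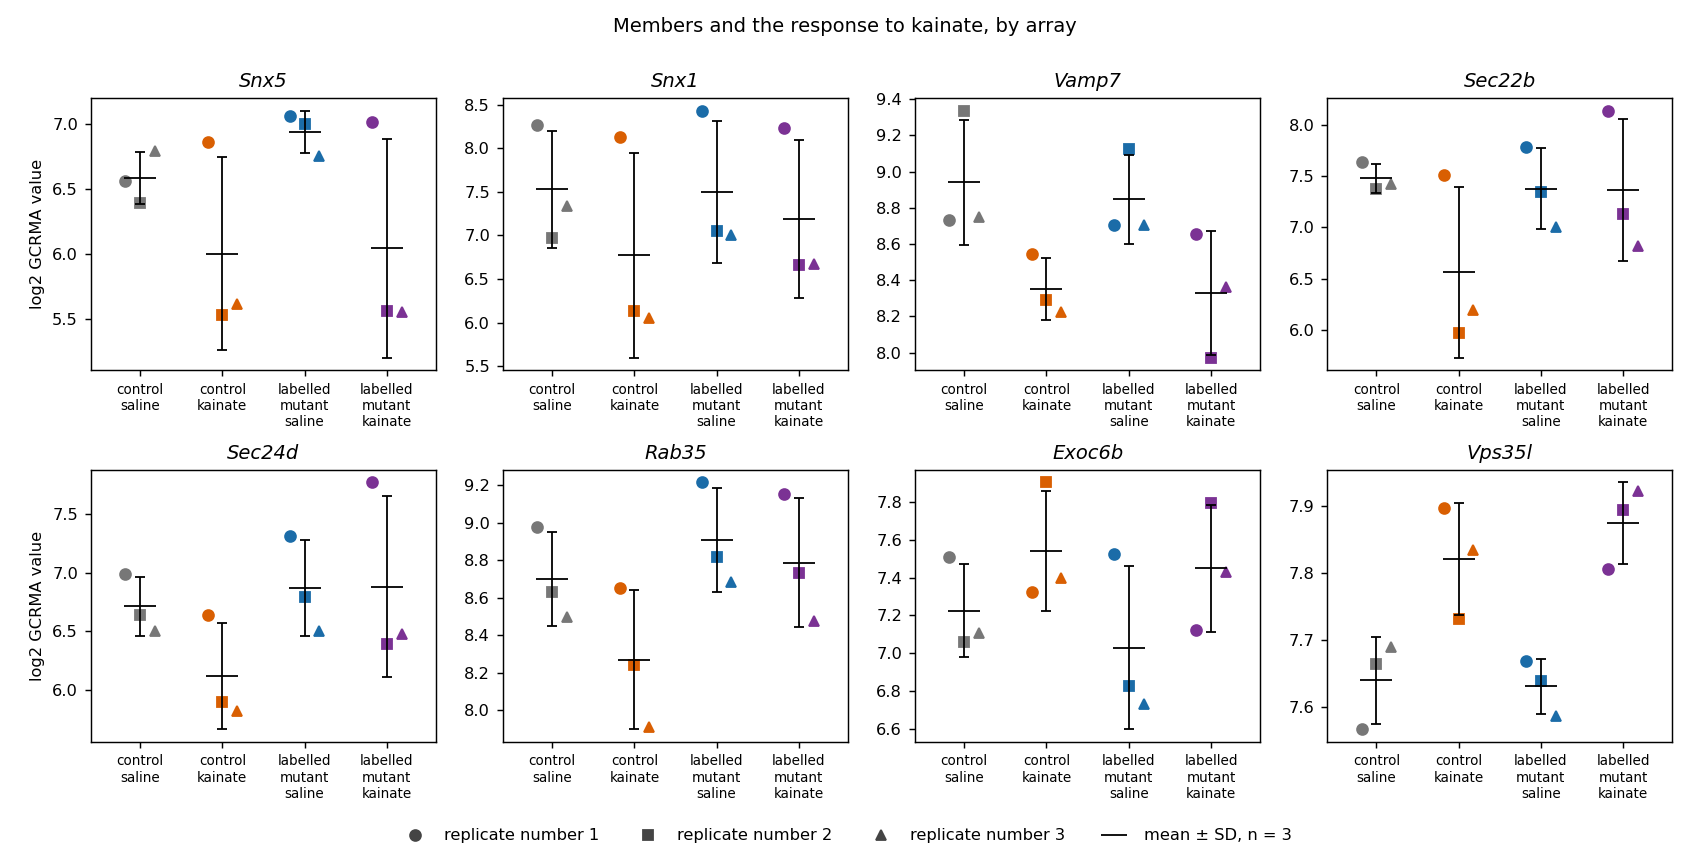
Log2 GCRMA value of Snx5, Snx1, Vamp7, Sec22b, Sec24d, Rab35, Exoc6b and Vps35l on each of the 12 arrays, by group; the symbol gives the replicate number and the bar the mean ± SD of 3 arrays. For Snx5 the kainate arrays numbered 2 and 3 lie between 5.53 and 5.61 and those numbered 1 at 6.86 and 7.01.

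By direction alone, 7 members were lower after kainate in all 6 pairs of arrays, where 6.99% of all probe sets were: Rab11fip3, Rab26, Rab35, Snx1, Snx30, Stx16 and Vamp7. Syt14, Vps35l and Vps51 were higher in all 6, against 4.36%. Syt14 passed the filter only with its kainate arrays, so this count is not read against that share. In both genotypes the values of 2 members, Vamp7 lower and Vps35l higher, did not overlap between treatments, where 3.09% of all probe sets did not. The median difference of the members was -0.04, beside 0.01 for all tested probe sets. In each of the families not yet named, the smallest p belonged to Arf4 (0.16), a GTPase of the Golgi, Sec23ip (-0.18), a partner of the COPII coat, Stx17 (-0.18), the syntaxin of autophagosomes, and Syt13 (-0.16). None of these passed with or without the block.

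Markers of cell types were set beside the kainate results too. The 3 interneuron markers that passed the filter, which Gad1 did not, had a median of -0.50 and a mean level of 7.91 to 8.17 in control saline, 6.87 to 7.56 in control kainate, 7.88 to 8.18 in labelled mutant saline and 7.47 to 7.91 in labelled mutant kainate, and Maf passed with the block. The 2 choroid plexus markers had a median of -0.65 and a mean level of 7.07 to 7.20, 5.72 to 6.72, 6.14 to 7.73 and 6.28 to 7.30 in the same order, and 0 passed with or without the block. With the block 1 marker was lower in each of 4 other lists. It was Map2 (-0.39) among 10 neuron markers, of which 2 were above 0, with a median of -0.06. It was Zbtb20 (-0.29) among 5 principal cell markers, of which 3 were above 0, with a median of 0.02. It was Slc1a3 (-0.89) among 11 astrocyte markers, of which 4 were above 0, with a median of -0.06, and Ermn (-0.41) among 2 oligodendrocyte markers, both below 0. The part of these markers in the results on members was not tested.

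In controls alone, kainate gave 0 calls among members with the block, where 0.584% of all probe sets passed, and 13 members did not overlap between treatments, where 19.4% of all probe sets did not. The lower ones were Exoc5 (-0.62), Vamp7 (-0.59), Sec63 (-0.38), Rab39b (-0.31), Stx17 (-0.25), Vps33a (-0.19), Rab22a (-0.18), Rab11fip3 (-0.15) and Syt1 (-0.06). Vamp3 (1.07), Arf4 (0.29), Vps35l (0.18) and Sec14l3 (0.11) were higher. The count of 13 holds Vamp3, which met the filter through kainate arrays, so it is not read against the share of all probe sets. Vamp3, a SNARE of recycling endosomes also called cellubrevin, read 3.04, 3.47 and 3.32 in control saline, 3.47, 3.76 and 5.79 in control kainate, 3.38, 3.45 and 4.07 in labelled mutant saline and 3.23, 4.09 and 5.60 in labelled mutant kainate. The large differences came from the kainate arrays numbered 3, and most other values lay under 4. The difference averaged over genotypes was 0.87, given with no test because kainate arrays carried the gene over the filter.

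In labelled mutants kainate also gave 0 calls with the block, where 0.363% of all probe sets passed, and 6 members did not overlap between treatments, where 9.13% of all probe sets did not. They were Vamp7 (-0.52), Rab26 (-0.32) and Stx16 (-0.13), a syntaxin of the trans-Golgi, on the lower side and Rab27b (0.30), Vps35l (0.24) and Rab11fip4 (0.23) on the higher.

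The difference of the kainate responses between genotypes had no call in limma with or without the block, among members or among all tested probe sets (0%). The smallest p-values among members belonged to Sec23ip (0.43), Vps13b (-0.46), Rab27b (0.38), Syt1 (0.11), Sec22b (0.90), Rab39b (0.24), Exoc5 (0.57), Sec14l3 (-0.24), Rab29 (-0.21) and Snx16 (0.53). A positive value means that kainate minus saline was more positive in labelled mutants. That can be a smaller fall, as for Sec22b and Exoc5. With the block 4 members had an unadjusted p under 0.05, against 8.94% of all probe sets. Sec22b, a SNARE between endoplasmic reticulum and Golgi, read 7.64, 7.38 and 7.42 in control saline, 7.52, 5.97 and 6.20 in control kainate, 7.79, 7.34 and 7.003 in labelled mutant saline and 8.14, 7.13 and 6.82 in labelled mutant kainate. The 2 lowest values belonged to control kainate arrays numbered 2 and 3. Its response was -0.92 (SE 0.424) in controls and -0.01 in labelled mutants, and the difference of 0.90 (SE 0.599) had limma adjusted p of 0.545 with the block. Sec24d, a COPII subunit that selects cargo leaving the endoplasmic reticulum, had means of 6.71 ± 0.249 (SD, n = 3) in control saline, 6.12 ± 0.453 in control kainate, 6.87 ± 0.41 in labelled mutant saline and 6.88 ± 0.771 in labelled mutant kainate. The 3 COPII members, of which Sec23ip is a partner of the coat, had a median response of -0.40 in controls and 0.01 in labelled mutants, with 0 of 3 and 2 of 3 above 0. COPII was 1 of several groups by function, and no test singled it out. The difference had a median of 0.06 over the members, with 52 of 81 above 0, and of -0.02 over all tested probe sets, with 2963 of 6334 above 0. When arrays were centred on their medians these became 0.25 and 0.17, and the median response in controls became -0.20 for members and -0.12 for all probe sets, beside -0.06 and 0.02 as deposited. With quantile normalization the difference had a median of 0.02 over the members, with 47 of 81 above 0, and of -0.02 over all probe sets. The median response in controls was then -0.003 for members and 0.03 for all probe sets, so these medians depend on the scaling.

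Replicate number took more of the members' variation, in the median, than treatment or genotype did. The shares below are not scaled for the number of levels. Replicate number has more levels than treatment or genotype, which alone enlarges its share. Of the sum of squares of each member over 12 arrays, a median of 34.2% lay between replicate numbers, 10.4% with treatment, 7.26% with genotype, 2.33% with their interaction and 31.9% in the rest. Over all tested probe sets these medians were 33.7%, 9.22%, 3.41%, 3.04% and 28.0%. In 23 members (28.4%) the number took over 50%, as in 30.9% of all probe sets. The extreme was Syt14, a synaptotagmin that does not act as a calcium sensor, which read 6.03, 6.87, 6.26 and 6.31 on the arrays numbered 1 and 2.98 to 4.86 on the others, with 90.4% of its variation between numbers. Snx1 followed with 80.96%. The members read higher on number 1 than on the mean of the others by a median of 0.14, beside 0.05 for all probe sets. The residual SD around the group means had a median of 0.222 for members and 0.222 for all probe sets, and 0.177 and 0.161 with the block. It was largest for Syt14 (1.60), Snx1 (0.91), Vamp3 (0.90), Sec22b (0.58) and Snx5 (0.58). It was smallest for Syt1 (0.035), Vps35l (0.065), Rab23 (0.075), Rab11fip3 (0.081) and Snx8 (0.095). Syt1, the calcium sensor of fast transmitter release, stayed at 12.39 to 12.53 on all arrays, near the top of the range of this array.

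**Figure D4:**
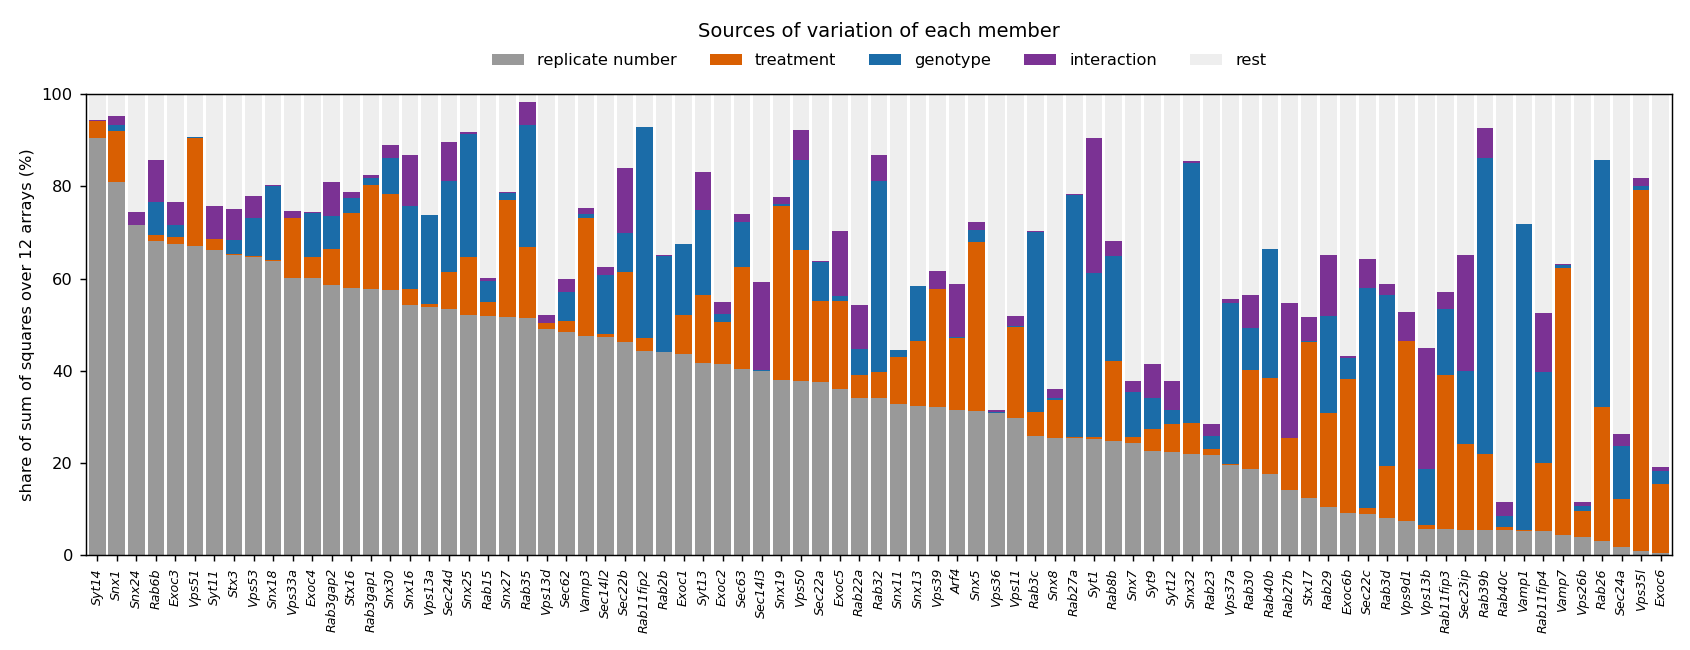
Share of each member's sum of squares over the 12 arrays that lies between replicate numbers, treatments and genotypes, in their interaction and in the rest, with the 81 members ordered by the first share. Replicate number takes 90.4% in Syt14 and over 50% in 23 members.

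Of the members, 26 had several probe sets over the filter and 55 had 1. Several genes had probe sets that went opposite ways by at least 0.5. For the difference of responses these were Exoc5 (0.57 and -0.01), Rab6b (0.17 and -0.48), Snx1 (0.45 and -0.21) and Vps9d1 (0.12 and -0.45). For kainate they were Snx16 in labelled mutants (0.41 and -0.10) and, in controls, Snx19 (0.14 and -0.42) and Syt13 (-0.27 and 0.25). The second Exoc5 probe set gave -0.46 for kainate in controls and -0.47 in labelled mutants, where the member's own gave -0.62 and -0.05. Syt1 had a second probe set with -0.39 for kainate averaged over genotypes, against -0.01 for the member's own. Vamp7, Rab26, Rab27a, Rab39b, Rab11fip2 and Rab32 had no second probe set over the filter. The probe sets of Vamp3 and Snx30 also have the suffix _i, and those of Sec14l2 and Sec14l3 the suffix _r, which is not the standard form either.

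Other genes of membrane traffic were taken from 6 lists of partners: 14 of 29 SNARE partners were tested, 16 of 31 genes of synaptic vesicles and active zones, 12 of 48 of clathrin and endocytosis, 24 of 55 of COPI and Golgi tethers, 17 of 37 of the Rab cycle and 3 of 14 of ESCRT-III. Of these 86 genes, limma called 0 without the block in each of the 7 comparisons. For kainate averaged over genotypes 10 passed with the block (11.6%), where 7.63% of all probe sets did. Higher were 2, Sh3gl2 (0.22), an endophilin of synaptic vesicle endocytosis, and Bicd2 (0.36), a dynein adaptor. Lower were 8 (9.30%), where 5.42% of all probe sets were: the SNARE Bet1 (-0.32), the synaptic vesicle protein Sv2b (-0.45), the adaptor subunit Ap1g1 (-0.38), Necap1 (-0.56), the TRAPP tether subunits Trappc6b (-0.54) and Trappc8 (-0.48), the Golgi matrix protein Golga2 (-0.49) and the ESCRT-III subunit Chmp1b (-0.52). For genotype averaged over treatments 1 passed with the block (1.16%), where 2.32% of all probe sets did: Bet1, which was lower (-0.43, limma adjusted p 0.0250).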

How the data were processed

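The authors deposited 1 log2 value per probe set and array. The submitters' processing notes name GCRMA and R 2.4.1; settings and annotation are not given in the sources. GCRMA draws low values towards a floor, so differences near 4 can be understated. Of 12477 entries 66 were control probe sets. The rest were filtered at a value over 4 in at least 3 of 12 arrays, which left 6334. Using limma 3.58.1 (R 4.3.3), lmFit estimated 1 mean for each group from the 12 arrays together and eBayes used an intensity trend, with Benjamini-Hochberg adjustment over all tested probe sets at 0.05. The fit was also run on simulated data with independent noise on each array. Those data held no pairing by replicate number, so they cannot check the calls made with the block. Depth has no count on arrays, and 3 arrays per group limit the precision.

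The replicate number was also fitted as a block. The pairing comes from the data: deviations from the group means of same-numbered arrays (18 pairs across groups) correlated at 0.361 to 0.881, against -0.782 to 0.583 for different numbers, mainly because number 1 stood apart. Without the block, p-values measure the spread between pools of 3 animals. With the block, they measure the spread left after differences between replicate numbers are taken out.

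Genes were named from the platform annotation and matched to RefSeq by Entrez identifier (81 of 81). The members, lists and tests were chosen with earlier results of these data known. Named were members that passed with or without the block, those whose groups did not overlap (up to 10 a direction), the 10 smallest p-values for the difference of responses, the smallest per family for kainate, the 5 largest and 5 smallest residual SDs, and discordant probe sets. Other members were chosen after their values were seen. Alternatives were scaling, filters, the trend, the block and arrays left out.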

Additional observations from a re-analysis of the deposited data

Results flagged for a closer look

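Syt1 was singled out because its kainate difference had one sign on all control pairs and the other on all labelled mutant pairs: -0.07, -0.01 and -0.10 for replicate numbers 1, 2 and 3 in controls and 0.06, 0.04 and 0.04 in labelled mutants. The difference of responses, 0.11 on the log2 scale, had limma adjusted p of 0.690 with the block, so it did not pass. With quantile normalization the response in controls was 0.03, and the second Syt1 probe set gave -0.37 in controls and -0.40 in labelled mutants. This was 1 of the 81 members.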

How the results depend on the processing

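Without the block no member was called in any of the 7 comparisons under median centring, quantile normalization, no filter, a filter at 6 or no intensity trend. With the replicate block 3 members passed for kainate averaged over genotypes and 6 for genotype averaged over treatments, and also when all 110 probe sets of the members were read, a fit added after seeing the data. The 6 hold Rab27a and Rab32, which are given with no test. With block and quantile normalization the counts were 3 (Rab35 and Snx1 lower, Vps35l higher) and 4 (Rab11fip2, Rab26 and Rab39b lower, Rab35 higher), and the block changed no other call. Leaving out arrays without the block gave 0 to 9 members for kainate in controls, 0 to 2 in labelled mutants and 0 to 13 averaged, the upper ends without all arrays numbered 1; without the labelled mutant kainate array numbered 1 alone, Exoc5 and Snx5 passed for kainate averaged. With the block, added after seeing the data, leaving out 1 array gave 0 to 12 for kainate averaged and 0 to 4 for genotype averaged. Reversed were Syt1 for kainate in controls (0.0267 with quantile normalization, with or without the block), Sec14l3 (-0.0284) and Snx19 (-0.00197) there with median centring, and, among fits without an array, the difference of responses of Snx1 (-0.0739 to 1.13) and Vps9d1 (-0.0618 to 0.274). The other 1600 values of named members kept direction and side of the threshold, and 24 passed only under an alternative. The fit without the block called no member, so keeping its side of the threshold meant staying uncalled. The calls with the block held less well. Without 1 array, Rab39b and Rab11fip2 were lost for genotype in 12 of 12 fits and Rab35 in 7. Signals near the filter (Rab27a, Rab32, Vamp3) limit what can be read from those members.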
